A study of Drosophila melanogaster with 12 samples.

Results

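The genes described here encode the small-RNA silencing machinery of the fruit fly Drosophila melanogaster. They are AGO2, Dcr-2 and r2d2 of the small interfering RNA (siRNA) arm, and AGO1, Dcr-1 and loqs, grouped here as the microRNA arm. The others are the silencing-complex proteins vig and Tudor-SN, and the nuclear microRNA processing pair drosha and pasha. The 10 genes were taken by name, through their FlyBase identifiers, from the 17023 gene rows in the count tables. All 10 were found and all 10 passed the filter on low counts, with between 184 counts (loqs) and 10063 counts (AGO2) in a library.

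In RNA interference, Dicer-2 cuts long double-stranded RNA (dsRNA) into siRNAs, R2D2 helps to load them into Argonaute-2, and Argonaute-2 cleaves the matching target RNA. In the microRNA pathway, Drosha and Pasha release hairpins from nuclear transcripts, Dicer-1 with Loquacious cuts them again in the cytoplasm, and Argonaute-1 carries the microRNA to mRNAs that are then repressed and decayed. S2 cells, an embryo-derived Drosophila line with features of blood cells, take up dsRNA and silence the matching gene, and the knockdown in this study runs through the siRNA arm.

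Cells received either 1 µg of dsRNA against GFP as the control or 1 µg of dsRNA against porthos (symbol pths, CG9253), which encodes a DEAD-box RNA helicase, so both treatments put dsRNA into the cells and none of the libraries used here comes from cells without it. Cells were passaged 48 hours after transfection and harvested after 3 further days, following 3 minutes in 100 µg/ml cycloheximide. For each treatment there were 3 poly(A)-selected libraries of input RNA, from 20% of the lysate, and 3 of polysome RNA, from a 10% to 50% sucrose gradient. Input RNA was extracted with TRIzol and polysome RNA with phenol-chloroform, so fraction and extraction cannot be told apart. The labels do not say whether equal treatments were separate cultures, and each p-value therefore reflects library-to-library spread only, which may be technical. In such bulk samples fewer cells of a kind and less RNA per cell cannot be told apart.

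The libraries held 7559406 to 11918941 counts, with input at 9648377 or more and polysome at 9453365 or fewer. The third polysome library of the porthos group stood apart, with 10377 genes holding a count against 11485 to 11864 in the other 11 libraries, and the polysome results for the porthos group that lead below are also given without it. Levels are in CPM, a gene's counts relative to its library's total after trimmed-mean (TMM) scaling. At these depths 3 counts equal 0.262 to 0.383 CPM. The targeted gene pths stood at 222.8 ± 2.99 CPM (SD, n = 3) in GFP input and 103.1 ± 6.43 in porthos input, a log2 change of -1.11 ± 0.10 (SE), and at 320.04 ± 6.08 and 116.2 ± 23.95 CPM on polysomes, a log2 change of -1.46 ± 0.10, or -1.35 ± 0.09 without the third porthos library. Of the blood-cell (plasmatocyte) markers all 9 matched had counts and 8 passed the filter. They summed to 1475 to 1710 CPM in GFP input, most of it from Col4a1 (790 ± 77.4), vkg (326 ± 39.5) and crq (238 ± 8.17), while NimC1 (0.810 ± 0.154) and Sr-CI (0.600 ± 0.307) lay near the level of 3 counts. In the same libraries fat body markers summed to at most 1.84 CPM and muscle markers to at most 10.6 CPM. The label of a blood-cell-like line thus stood beside its markers, although aub, a germline gene, was present at 201 ± 4.14 CPM and neuron markers summed to 140.4 to 164 CPM there, most of it from elav (137 ± 11.2 CPM). Markers of other blood-cell kinds, crystal cells and lamellocytes, summed to 109 to 117 CPM in GFP input, most of it from ItgaPS4 (109 ± 4.26 CPM).

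The members spanned a wide range of mRNA level per length in control cells. In GFP input, CPM per kilobase of exon was highest for vig at 240.4 ± 7.08 (SD, n = 3), followed by AGO2 at 192 ± 5.15 and Tudor-SN at 168 ± 7.43. AGO1 followed at 79.9 ± 5.70 and Dcr-2 at 60.9 ± 4.12. The lower end of the order held r2d2 at 22.7 ± 0.877, Dcr-1 at 21.8 ± 0.0938, drosha at 20.2 ± 0.293, pasha at 13.0 ± 0.842 and loqs at 9.51 ± 0.303. The 3 libraries of neighbours in this order did not overlap, except for r2d2 and Dcr-1, which did not differ beyond their spread. The level of vig per length was 25.3 times that of loqs, and the median of 8818 tested genes with a length was 18.7, so vig, AGO2 and Tudor-SN lay above 97.2%, 96.3% and 95.5% of genes and loqs above 34.3%. By mean, vig was the highest and loqs the lowest of the 10 in each of the 4 groups. On polysomes after GFP dsRNA the libraries of loqs and pasha overlapped.

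For 3 pairs of counterparts the siRNA gene exceeded the microRNA gene within every library. Per exon length, the AGO2 level in the GFP input libraries was 2.56, 2.52 and 2.15 times that of AGO1, that of Dcr-2 was 2.63, 2.76 and 2.98 times that of Dcr-1, and that of r2d2 was 2.35, 2.40 and 2.39 times that of loqs. Such a ratio is taken inside a library and does not depend on scaling between libraries. The loqs counts sum over its 6 annotated transcripts, so no isoform is read apart in its ratio. AGO2, AGO1, r2d2 and loqs share 317, 229, 431 and 420 exon bases with genes on the other strand. The strand setting of the counting is not given in the sources used here, so reads there cannot be assigned with certainty.

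**Figure D1:**
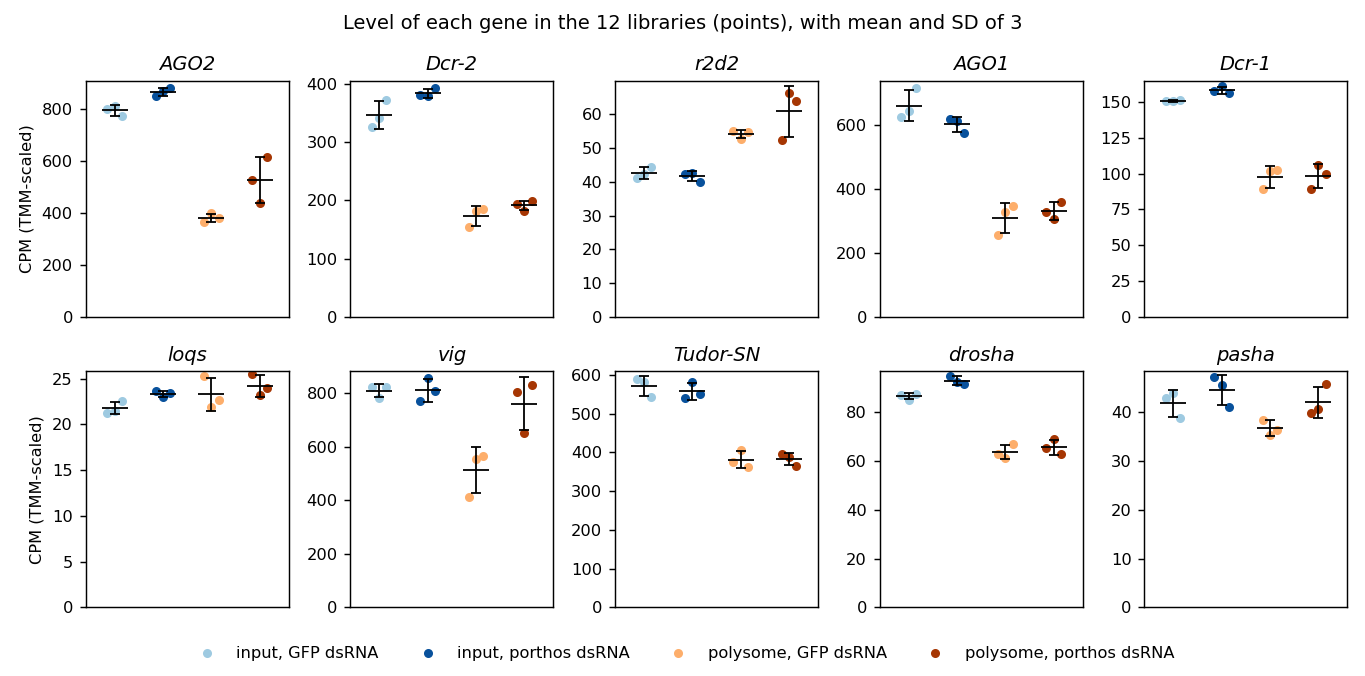
Level of the 10 genes in TMM-scaled CPM (linear axis from 0, set per gene) in the 12 libraries, one point per library, with the mean and SD of 3 per group. AGO2 and vig stand higher on polysomes after porthos dsRNA than after GFP dsRNA without overlap, and 7 genes are lower on polysomes than in input after GFP dsRNA by the test.

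The first comparison asked whether porthos depletion altered the total mRNA of the silencing genes. In input, none of the 10 members passed the test (edgeR quasi-likelihood, Benjamini-Hochberg adjusted p under 0.05 over 9024 genes), where 1.72% of all tested genes did, 0.997% higher and 0.72% lower. None had an unadjusted p under 0.05 and DESeq2, which called 2.7% of all genes, called none either. Their log2 changes ran from -0.13 ± 0.09 (SE) for AGO1 to 0.15 ± 0.08 for Dcr-2, with a median of 0.08 against 0.00 over all genes.

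Among the siRNA genes, AGO2, the slicing Argonaute, stood at 801, 812 and 771 CPM in GFP input and at 850.03, 869 and 879 CPM in porthos input, higher in every porthos library. Dcr-2, the dsRNA-cutting Dicer, stood at 325, 342 and 372 CPM and at 380.2, 378 and 392 CPM, again without overlap. Its dsRNA-binding partner r2d2 stood at 41.0, 42.4 and 44.3 CPM and at 42.3, 42.6 and 40.02 CPM, and its groups overlapped. The differences of AGO2 (log2 change 0.12 ± 0.09, adjusted p = 0.57) and Dcr-2 (0.15 ± 0.08, adjusted p = 0.40) did not pass the test.

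In the microRNA arm, AGO1 went the other way and stood at 626, 643 and 715 CPM in GFP input and at 618, 612 and 577 CPM in porthos input, lower in every porthos library (adjusted p = 0.56). Dcr-1, which makes mature microRNAs, stood at 150.4, 150.5 and 152 CPM and at 157, 161 and 156 CPM, and its partner loqs at 21.3, 21.5 and 22.6 CPM and at 23.6, 23.02 and 23.4 CPM. Dcr-1, loqs and drosha were each higher in every porthos input library, by log2 changes of 0.07 ± 0.07, 0.10 ± 0.11 and 0.10 ± 0.07 that did not pass. Counted over the members, 5 were higher and 1 was lower without overlap in input, where 12.9% and 12% of all genes were.

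The silencing-complex proteins were level in input. The vig gene, whose product was found in the fly silencing complex with Argonaute-2, stood at 824, 783 and 825 CPM after GFP dsRNA and at 770.3, 856 and 809 CPM after porthos dsRNA, with overlap and a log2 difference of 0.00 ± 0.10. Tudor-SN, a nuclease subunit of the complex, stood at 589, 583 and 543 CPM and at 541, 581 and 550.4 CPM, also with overlap. The nuclear pair drosha and pasha stood at 86.5 ± 1.26 and 41.8 ± 2.71 CPM in GFP input and at 92.7 ± 1.87 and 44.5 ± 3.11 CPM in porthos input.

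On polysomes, porthos depletion came with higher levels of vig and AGO2 mRNA. The call covered 2 of 10 members, both higher, while 18.4% of all tested genes were called and 11.2% were called higher and 7.14% lower, so the members' share is near the background. The third polysome library of the porthos group gives the highest value of both genes on polysomes, and both calls also held without it. The first GFP polysome library gives the lowest value of both genes. Without it both calls held, while the calls over all genes went from 1658 to 855.

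The vig mRNA stood at 414, 557 and 567 CPM on polysomes after GFP dsRNA and at 805, 650.5 and 831 CPM after porthos dsRNA, with every porthos library above every control library. The log2 change was 0.57 ± 0.10 (SE), a 1.49-fold rise, with an adjusted p of 0.00041 by edgeR. Its change was larger than that of 95.5% of tested genes. Without the third porthos library it was 0.49 ± 0.10 (adjusted p = 0.0035), and over all 19 alternatives it lay between 0.43 and 0.66 with adjusted p-values of at most 0.0094.

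The AGO2 mRNA stood at 366, 398 and 379.96 CPM on polysomes after GFP dsRNA and at 528, 437 and 616 CPM after porthos dsRNA, again without overlap. The log2 change was 0.47 ± 0.09, a 1.38-fold rise, with an adjusted p of 0.0009, and exceeded that of 92.9% of genes. Without the third porthos library it was 0.32 ± 0.08 (adjusted p = 0.013), the lowest of the 19 alternatives, whose highest value was 0.57. AGO2 lies at chr3L:15554113-15561042 on the plus strand (annotation BDGP6.54) and shares 317 of 4144 exon bases with CG7739 on the other strand. CG7739 stood at 61.0 ± 5.03 CPM on polysomes after GFP dsRNA and at 83.6 ± 4.49 after porthos dsRNA, a log2 change of 0.45 ± 0.08 (adjusted p = 0.00031), or 0.42 ± 0.08 (adjusted p = 0.0019) without the third porthos library. The strand setting of the counting is not given in the sources used here, so reads in the shared stretch cannot be assigned with certainty to either gene.

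The other 8 members did not pass on polysomes. In the siRNA arm, Dcr-2 stood at 154, 182 and 185 CPM after GFP dsRNA and at 194, 182 and 198 CPM after porthos dsRNA, and r2d2 at 55.0, 52.8 and 54.7 CPM and at 52.2, 66.3 and 63.9 CPM. Both overlapped between treatments, with log2 differences of 0.14 ± 0.08 and 0.16 ± 0.09 (adjusted p = 0.23 and 0.22). Over the 19 alternatives the Dcr-2 difference ranged from 0.05 to 0.16 and that of r2d2 from 0.08 to 0.25, and none was called. In the microRNA arm, AGO1 stood at 255, 327 and 347 CPM and at 329, 306 and 359.6 CPM, and Dcr-1 at 97.7 ± 7.53 and 98.2 ± 8.25 CPM. The lowest AGO1 value came from the first control library, and without it the AGO1 difference of 0.10 ± 0.09 became -0.04.

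The loqs, Tudor-SN and drosha levels on polysomes overlapped between treatments, at 23.3 ± 1.80 and 24.2 ± 1.22 CPM, 381 ± 22.3 and 383 ± 16.5 CPM, and 63.6 ± 2.82 and 65.6 ± 3.10 CPM. The Drosha cofactor pasha was higher in every porthos library, at 38.4, 35.2 and 36.4 CPM against 39.7, 40.6 and 45.7 CPM, and its log2 difference of 0.19 ± 0.10 had an adjusted p of 0.17. With AGO2 and vig that makes 3 of 10 members higher on polysomes without overlap, where 16.2% of all genes were, and none lower, where 13.4% were. All 10 differences were above 0 with the main scaling, with a median of 0.12 against 0.00 over all genes, and 8 of 10 were above 0 with the median-ratio (RLE) scaling or with library size alone, under which Dcr-1 and Tudor-SN fell below 0. All 10 exceeded the all-gene median under each of the 3 scalings. Without the first GFP polysome library, AGO1, Dcr-1 and Tudor-SN stood below 0, at -0.035, -0.069 and -0.017. Without the second GFP polysome library, loqs and drosha did, at -0.0098 and -0.0038.

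**Figure D2:**
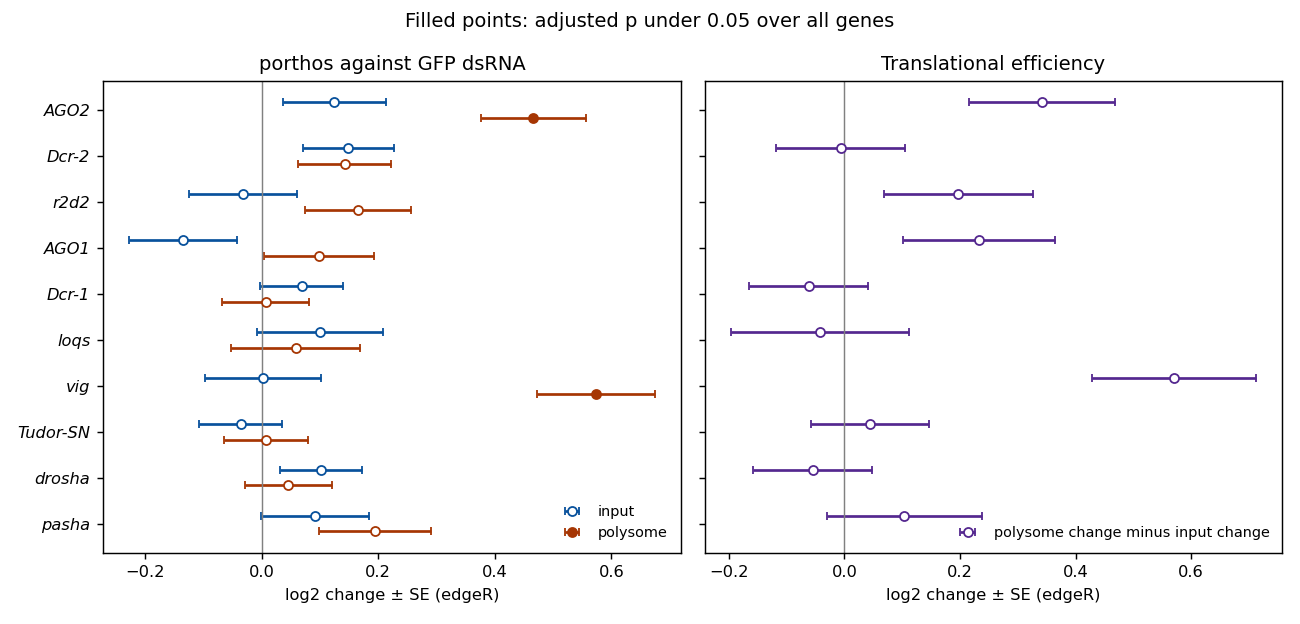
Log2 changes ± SE from edgeR for the 10 genes, porthos against GFP dsRNA, in input and on polysomes (left) and for translational efficiency (right), with filled points for an adjusted p under 0.05 over all genes. On polysomes vig (0.57) and AGO2 (0.47) are the filled points, and no point is filled for input or translational efficiency.

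Translational efficiency was tested as the polysome change minus the input change in a single model, which asks whether the shift on polysomes exceeded that of total mRNA. None of the 10 members passed by edgeR, where 0.0997% of tested genes did, and 2 had an unadjusted p under 0.05. These were vig, at 0.57 ± 0.14 on the log2 scale (adjusted p = 0.072), and AGO2, at 0.34 ± 0.13 (adjusted p = 0.19). DESeq2 called vig alone among the members (adjusted p = 0.0095), where it called 2.8% of all genes. In edgeR a replicate block per lysate also called vig alone (0.58, adjusted p = 0.021), where 227 of 9024 genes were called. So did the fit with no filter on low counts (adjusted p = 0.0003), where 243 of 14145 genes were called. Leaving out the second porthos polysome library gave 2 member calls, where 694 of 9237 genes were called. They were vig at 0.66 (adjusted p = 0.0037) and AGO2 at 0.45 (adjusted p = 0.0081). Leaving out the third control polysome library gave 1 member call, vig at 0.62 (adjusted p = 0.043), where 79 of 9203 genes were called. Without the third porthos polysome library, which gave no call, vig stood at 0.49 and AGO2 at 0.20, a drop of more than 1.5 times for AGO2. Of the rest, AGO1 stood at 0.23 ± 0.13 and r2d2 at 0.20 ± 0.13, pasha at 0.10 ± 0.13, and the remaining 5 between -0.06 and 0.04. Over the alternatives AGO1 ran from 0.10 to 0.29, r2d2 from 0.12 to 0.29 and pasha from 0.02 to 0.15, and none was called. For the members the median was 0.07 and for all genes 0.00.

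The siRNA to microRNA ratios were compared between treatments within libraries, with an exact two-sided permutation test of 3 against 3 libraries that cannot give a p below 0.1, adjusted over 6 tests. In input, the AGO2 to AGO1 ratio per exon length was 2.56, 2.52 and 2.15 after GFP dsRNA and 2.75, 2.84 and 3.05 after porthos dsRNA, so every porthos library was above every control. The difference of mean log2 ratios was 0.26 (exact permutation p = 0.1, adjusted p = 0.3), in 3 of 3 porthos libraries above the controls.

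On polysomes, the AGO2 to AGO1 ratio was 2.86, 2.43 and 2.19 after GFP dsRNA and 3.20, 2.85 and 3.42 after porthos dsRNA, with the lowest porthos library just under the highest control. Its log2 difference was 0.35 (exact permutation p = 0.2, adjusted p = 0.36). The Dcr-2 to Dcr-1 ratio was 2.79 ± 0.177 and 2.95 ± 0.0968 (SD, n = 3) in input and 2.16 ± 0.0525 and 2.39 ± 0.274 on polysomes, with overlap in both. The r2d2 to loqs ratio was lower in every porthos input library, at 2.35, 2.40 and 2.39 against 2.18, 2.26 and 2.08, a log2 difference of -0.13 (exact permutation p = 0.1, adjusted p = 0.3). On polysomes it was 2.84 ± 0.168 and 3.07 ± 0.521, with overlap. Without the third porthos library the polysome log2 differences were 0.29 for AGO2 to AGO1, 0.13 for Dcr-2 to Dcr-1 and 0.05 for r2d2 to loqs.

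**Figure D3:**
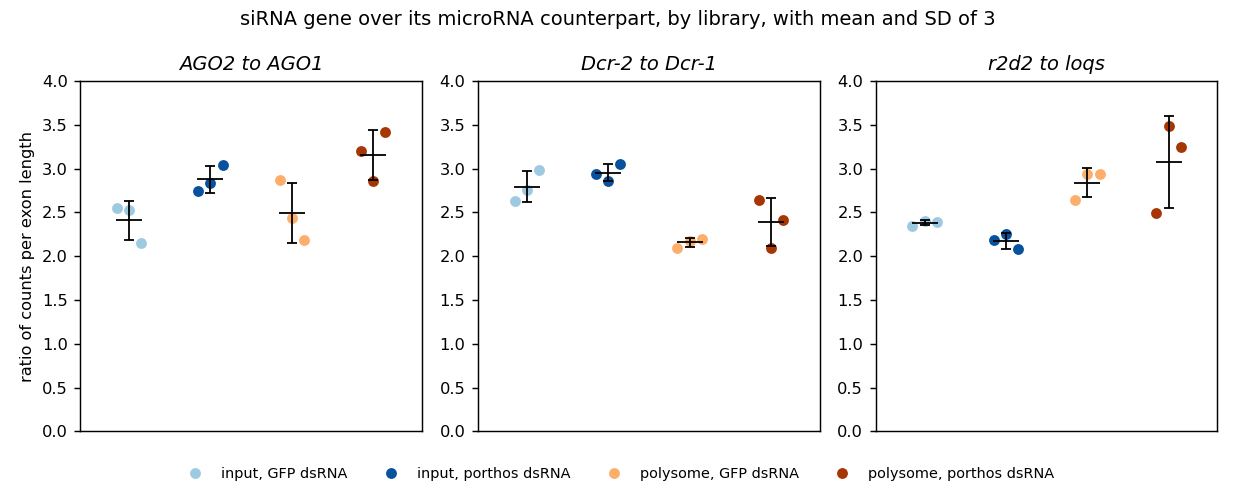
Ratio of counts per exon length of each siRNA gene to its microRNA counterpart (linear axis from 0), one point per library with the mean and SD of 3 per group. In input the AGO2 to AGO1 ratio is higher and the r2d2 to loqs ratio lower in every porthos library, and the groups overlap on polysomes.

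How far the silencing mRNAs sat on polysomes was compared with input under each treatment. Each library is scaled to its own total, so a value below 0 says that a gene took a smaller part of the polysome library than of the input library. In control cells 7 members were lower and 1 was higher on polysomes by edgeR, where 55.4% of all tested genes were called, 28.9% lower and 26.5% higher. The median log2 difference was -0.61 for the members and 0.01 for all genes. With library size alone as scaling these medians were -0.48 and 0.14, and the same 8 of 10 members stayed below 0.

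In GFP-treated cells the Argonautes were the lowest on polysomes with AGO1 at -1.09 ± 0.09 and AGO2 at -1.06 ± 0.09, followed by Dcr-2 at -0.996 ± 0.079, all with adjusted p-values of at most 1.1e-09. The mean polysome level was 46.8% of the mean input level for AGO1, 48.0% for AGO2 and 50.1% for Dcr-2. The differences of vig (-0.66 ± 0.10), Dcr-1 (-0.63 ± 0.07), Tudor-SN (-0.58 ± 0.07) and drosha (-0.44 ± 0.07) also passed. Only r2d2 among the 10 was called higher, at 0.35 ± 0.09 (adjusted p = 0.0025), so the partners Dcr-2 and r2d2 had differences of opposite sign. The differences of loqs (0.10 ± 0.11) and pasha (-0.19 ± 0.10, adjusted p = 0.099) did not pass.

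After porthos dsRNA 6 members were lower and 1 was higher on polysomes, where 47.8% of all genes were called, 24.1% lower and 23.7% higher, and the median was -0.52 against 0.01 over all genes. Dcr-2 was again among the lowest at -1.003 ± 0.079, with AGO1 at -0.86 ± 0.09 and AGO2 at -0.72 ± 0.09. The r2d2 gene was higher at 0.54 ± 0.09 (adjusted p = 2.6e-05). The difference of vig was -0.09 ± 0.10 (adjusted p = 0.48) and did not pass, with its mean polysome level at 93.9% of input after porthos dsRNA and 63.2% after GFP dsRNA. The difference between the treatments in this respect is the translational efficiency given above. It passed for no member in the main fit, and for vig or AGO2 in some alternatives. Summed over the 10 genes, the polysome level was 1834 to 2143 CPM after GFP dsRNA and 2269 to 2665 CPM after porthos dsRNA, and the input level was 3506 to 3569 and 3524 to 3662 CPM. Without vig and AGO2 the other 8 genes summed to 1055 to 1187 and 1182 to 1218 CPM on polysomes, with overlap.

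Exon length went along with these polysome differences. Across the 10 members Spearman's rho between summed exon length and the polysome difference was -0.78 after GFP dsRNA and -0.89 after porthos dsRNA, and across 8818 tested genes it was -0.66 and -0.63. With the GFP input level in place of length, rho was -0.83 and -0.60 across the members and -0.32 and -0.19 across the 8818 genes. For the polysome change of porthos against GFP dsRNA, rho with exon length was -0.38 across the members and 0.23 across the 8818 genes. With the GFP input level it was 0.32 and 0.13. For translational efficiency the values were -0.21 and 0.26 with length and 0.61 and 0.26 with level. The points share their libraries and genes are not independent replicates. The extremes of the set were r2d2, with 1879 exon bases, and AGO1, with 8278. Set beside the genes nearest in length, AGO1, AGO2, Dcr-2, vig and Tudor-SN lay below the lower quartile after GFP dsRNA and r2d2 lay above the upper quartile, and after porthos dsRNA the same held except for vig, which lay between the quartiles.

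**Figure D4:**
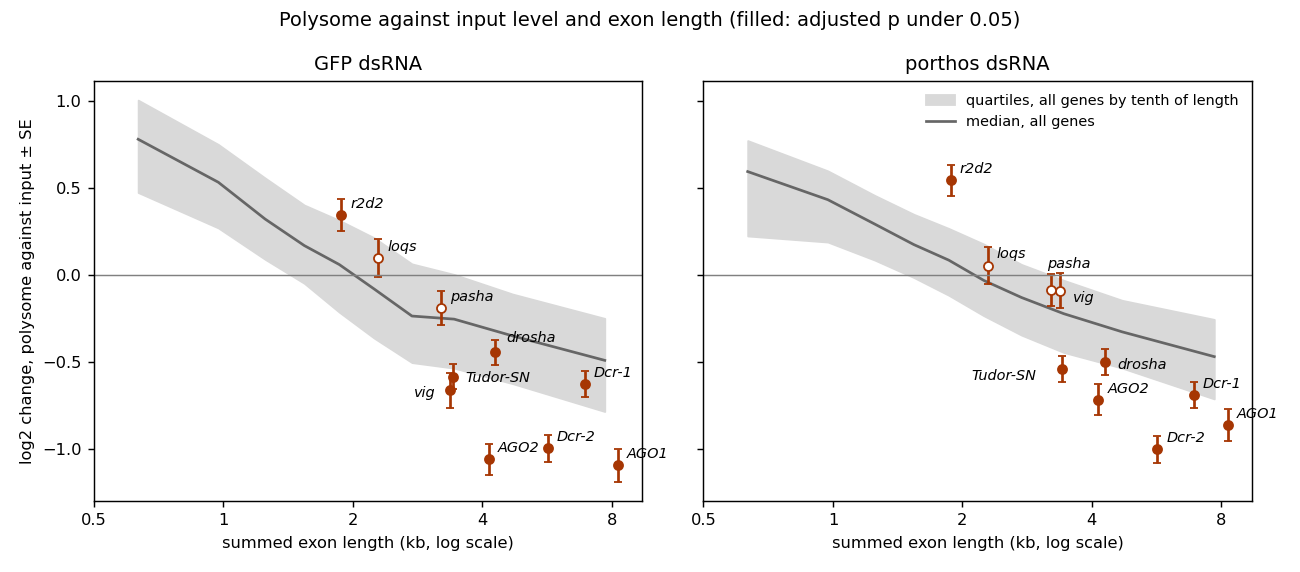
Log2 difference of polysome against input level ± SE for the 10 genes, by summed exon length (log axis, kb), after GFP dsRNA (left) and porthos dsRNA (right), over the median and quartiles of all tested genes in bins of exon length with equal numbers of genes; filled points have an adjusted p under 0.05. The longest gene AGO1 lies at -1.09 and -0.86 and the short gene r2d2 at 0.35 and 0.54.

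Wider lists of small-RNA genes were read in the same fit. They are set beside the share over all tested genes, which was not matched to them in length or level. The 6 lists held 13, 5, 19, 4, 22 and 13 tested genes, with armi on both the siRNA and the piRNA list. In input 1 of their genes was called, where 1.72% of all tested genes were, so the share is near the background. That gene was eater, a phagocytic receptor of plasmatocytes on the dsRNA uptake list. It stood at 19.3, 17.8 and 19.3 CPM after GFP dsRNA and at 34.6, 34.8 and 38.6 CPM after porthos dsRNA, a log2 change of 0.94 ± 0.13 (adjusted p = 0.00017). The plasmatocyte markers Hml and Pxn also stood higher after porthos dsRNA, at 48.1 ± 3.17 and 96.3 ± 13.2 CPM and at 21.4 ± 2.41 and 48.7 ± 5.61 CPM, while the marker sum was 1475 to 1710 and 1559 to 1842 CPM, and their part in the eater result was not tested. For translational efficiency no gene of any list was called by edgeR, while DESeq2 called 6 siRNA partners, 1 piRNA gene and 2 uptake genes, with 2.8% of all genes called.

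On polysomes, 6 of 13 siRNA partners were called higher and none lower, where 11.2% and 7.14% of all genes were, with a list median of 0.26 against 0.00 over all genes. The calls with the lowest adjusted p-values were of chaperones that load Argonaute-2 in flies: Stip1 (also called Hop) at 0.52 ± 0.09, the Hsp70 family member Hsc70-4 at 0.50 ± 0.09 and the J-domain protein Droj2 at 0.45 ± 0.08, with adjusted p-values of 0.00022, 0.00034 and 0.00059. The other chaperones of the list did not pass, Hsp83 at 0.20 ± 0.08 (adjusted p = 0.076) and p23 at 0.11 ± 0.08 (adjusted p = 0.36). Stip1 stood at 354, 389 and 384 CPM after GFP dsRNA and at 600.4, 452 and 566 CPM after porthos dsRNA, without overlap. The remaining calls, named after their values were seen, were trsn, Fmr1 and blanks, each at 0.26. The count was 3 in place of 6 without the first or second GFP input library, without the first GFP polysome library, or without the first or the third porthos polysome library, and also with library size alone and in a fit of 2 groups. Without the third porthos library Stip1, Hsc70-4 and Droj2 stood at 0.46, 0.44 and 0.37 (adjusted p = 0.0018, 0.0034 and 0.0074), and trsn, Fmr1 and blanks were no longer called.

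Among 19 microRNA silencing effectors, which deadenylate, decap or repress targets, 4 were called higher and none lower on polysomes, where 11.2% and 7.14% of all genes were, with a median of 0.08. These were the helicase me31B at 0.38 ± 0.09, the deadenylase subunit PAN2 at 0.25 ± 0.07, the decapping activator Patr-1 at 0.27 ± 0.08 and, named after its value was seen, the deadenylase scaffold Not1 at 0.24 ± 0.08. The count was 1 without the first GFP polysome library, 2 without the second, 0 without the first porthos polysome library and 1, me31B at 0.31 (adjusted p = 0.039), without the third. It was also 1 in a fit of 2 groups. Of 4 genes of microRNA trimming, tailing and decay, the exonuclease Dis3l2 was called (0.31 ± 0.09, adjusted p = 0.017), and it was lost without the first GFP or the third porthos polysome library and in a fit of 2 groups. None of 5 nuclear microRNA processing and export genes was called, with a median of 0.00, and 1 was called without the second porthos polysome library.

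Of 22 piRNA pathway genes, which silence transposons in the germline and some of which S2 cells express, 6 were called higher and 1 lower on polysomes, where 11.2% and 7.14% of all genes were, with a median of 0.19. The PIWI-family protein aub was higher at 0.63 ± 0.09 (adjusted p = 7.4e-05), with 85.1, 89.0 and 76.3 CPM against 129.9, 107 and 151 CPM. The arginine methyltransferase csul (0.47 ± 0.09) and the Tudor-domain gene vret (0.35 ± 0.08) were also higher. The single lower gene, squ, fell by 0.29 ± 0.07 on the log2 scale (adjusted p = 0.0072). The count was 4 in place of 7 without the third porthos polysome library, with aub at 0.48 (adjusted p = 0.00066), csul at 0.48, vret at 0.37 and squ at -0.32. The 4 germline markers with rows, which include aub, summed to 102 to 112 CPM on polysomes after GFP dsRNA and 132 to 193 CPM after porthos dsRNA, and their part in the result was not tested.

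Of 13 dsRNA uptake genes 6 were called higher and 1 lower on polysomes, where 11.2% and 7.14% of all genes were, with a median of 0.19. The eater mRNA was higher at 1.15 ± 0.15 (adjusted p = 1.5e-05), the endocytic adaptor AP-2mu at 0.54 ± 0.09 and the proton-pump subunit VhaSFD at 0.31 ± 0.07, while another adaptor subunit, AP-2sigma, fell by 0.39 ± 0.12 on the log2 scale. A further call, Sr-CI, rests on 2 to 5 counts a library after GFP dsRNA and 7 to 18 after porthos dsRNA and passed the filter on low counts through porthos libraries, where it is high, so it is no support, and 5 other genes were called higher. The count was 4 in place of 7 without the first GFP or the third porthos polysome library. Without the latter eater stood at 1.02 (adjusted p = 0.00011), AP-2mu at 0.42, VhaSFD at 0.24 (adjusted p = 0.03) and AP-2sigma at -0.42, and Sr-CI was not called (adjusted p = 0.057). The 9 plasmatocyte markers, which include eater and Sr-CI of this list, summed to 968 to 1122 CPM on polysomes after GFP dsRNA and 1123 to 1303 CPM after porthos dsRNA. Col4a1, vkg and crq make up most of that sum and, like srp, overlapped between treatments. Hml stood at 22.6 ± 2.83 and 38.4 ± 7.55 CPM and Pxn at 17.3 ± 1.402 and 37.5 ± 6.77 CPM. The part of the markers in the result was not tested.

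In control cells each of the 6 lists had more genes called lower than called higher on polysomes. Against input, 14 of 22 piRNA genes, 12 of 19 silencing effectors, 8 of 13 siRNA partners and 5 of 13 uptake genes were called lower, and 3, 2, 2 and 3 were called higher, where 28.9% of all genes were called lower and 26.5% higher. Each the most extreme called gene of its list on the low side, aub stood at -1.27 ± 0.09, the clathrin heavy chain Chc at -1.15 ± 0.07, Hsc70-4 at -0.90 ± 0.09 and PAN2 at -0.84 ± 0.07. On the high side of their lists AP-2sigma stood at 1.15 ± 0.13, the cap-binding subunit Cbp20 at 0.89 ± 0.09, squ at 0.76 ± 0.07 and p23 at 0.58 ± 0.08. After porthos dsRNA Chc stood at -1.14 ± 0.07 and AP-2sigma at 0.84 ± 0.13, or at -1.19 and 0.82 without the third porthos library.

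**Figure D5:**
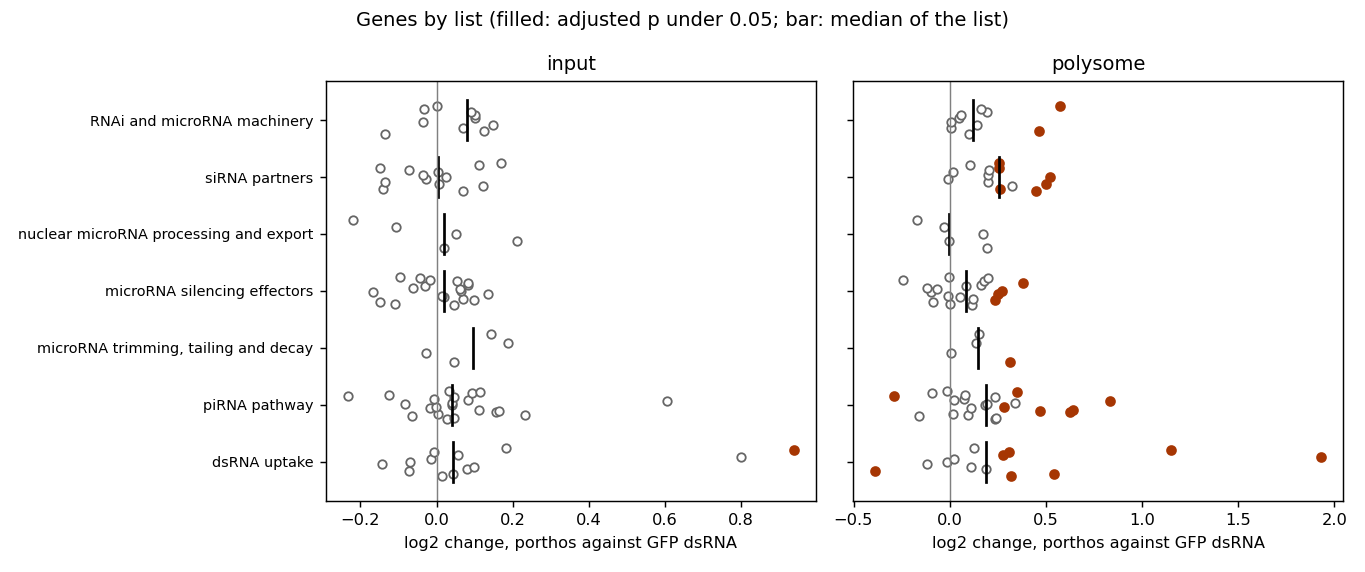
Log2 changes, porthos against GFP dsRNA, of the tested genes of the machinery and of 6 wider lists in input (left) and on polysomes (right), one point per gene, with filled points for an adjusted p under 0.05 and a bar at each list's median. In input eater (0.94) is the filled point, and on polysomes filled points lie mostly above 0, from 1.15 for eater down to -0.39 for AP-2sigma, beside 1.93 for Sr-CI, which has few counts.

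The count tables also hold 3 hairpin RNA genes, whose long inverted-repeat transcripts are cut by Dicer-2 into endogenous siRNAs in flies. They were singled out after their values were seen. All 3 lie on the minus strand of arm 3L, at chr3L:19420390-19424183 (hpRNA:CR32205), chr3L:19477329-19478720 (hpRNA:CR32207) and chr3L:19486745-19488439 (hpRNA:CR33940) in BDGP6.54. Repeated sequence makes their counts uncertain, since the handling of multiply mapped reads is not given in the sources used here.

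On polysomes, hpRNA:CR33940 stood at 26.0, 24.05 and 21.4 CPM after GFP dsRNA and at 15.1, 19.5 and 11.86 CPM after porthos dsRNA, lower in every porthos library. It fell by 0.62 ± 0.15 on the log2 scale (adjusted p = 0.0046) and by 0.49 ± 0.14 (adjusted p = 0.025) without the third porthos library. The rarer hpRNA:CR32205 stood at 7.22, 5.89 and 6.04 CPM and at 4.53, 3.33 and 2.30 CPM, and fell by 0.89 ± 0.25 (adjusted p = 0.013). This call was lost without the third porthos library (adjusted p = 0.059) or the first GFP polysome library (adjusted p = 0.066). It was also lost in a fit of 2 groups (adjusted p = 0.05 as rounded). The polysome groups of hpRNA:CR32207, at 53.8 ± 12.3 and 54.4 ± 12.4 CPM, overlapped. Of all tested genes 7.14% were called lower on polysomes. In input all 3 had log2 differences above 0, from 0.22 ± 0.13 to 0.43 ± 0.14, and none passed. With no filter hpRNA:CR32207 was called (adjusted p = 0.0005), where 264 of 14145 genes were. It was also called in a fit of 2 groups (adjusted p = 0.0012), where 691 of 8747 genes were. For translational efficiency all 3 were below 0, at -1.28 ± 0.33, -0.42 ± 0.20 and -0.84 ± 0.19, with adjusted p-values of 0.082, 0.33 and 0.052. With no filter on low counts all 3 were called, where 243 of 14145 genes were. With a replicate block per lysate hpRNA:CR32205 and hpRNA:CR33940 were called (adjusted p = 0.045 and 0.019), where 227 of 9024 genes were. With a replicate block hpRNA:CR33940 was called (adjusted p = 0.04), where 39 of 9024 genes were.

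Of the remaining genes overlapping a member, Cdc14 shares 431 exon bases with r2d2, asRNA:CR44599 shares 420 with loqs and CG33155 shares 196 with AGO1, each on the other strand. As for AGO2 and CG7739, reads in these shared stretches cannot be assigned with certainty to either gene. Levels were 46.2 ± 2.72 CPM for Cdc14, 1.56 ± 0.812 for asRNA:CR44599 and 0.142 ± 0.165 for CG33155 in GFP input. The pasha gene shares 82 exon bases with kek6 on its own strand, and kek6 stood at 5.37 ± 0.528 CPM there. The vig gene lies at chr2L:15062931-15070316, overlaps 2 genes on the opposite strand, solo and vas, and shares no exon base with either.

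The genes whose log2 CPM followed AGO2 most closely over the 12 libraries, among 9014 other tested genes, were Ranbp16, Sap-r and Ogdh, each with Pearson's r of 0.996. For AGO1 they were mxc and Unr, both with r of 0.996, and Larp4B with r of 0.993. These values describe 12 libraries that fall into the 4 groups, and AGO2 and AGO1 differed more between fractions than between treatments.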

How the data were processed

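Poly(A)-selected RNA of S2 cells was sequenced after directional library preparation. The deposited files hold raw read counts per FlyBase gene, which the authors made with HISAT2 2.1.0 and featureCounts 1.4.6 on build dm6, per the submitters' processing notes. Not given in the sources used here are the strand setting, the annotation release and the handling of multiply mapped reads. Symbols, lengths and overlaps came from Ensembl 115 (BDGP6.54), which matched 16647 of 17023 identifiers; Ge-1, vas, PPO1 and microRNA gene rows are not analysed here, and older symbols in the lists were read under their current names.

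Counts of the 12 libraries were fitted together in edgeR 4.0.16 (R 4.3.3, limma 3.58.1) with TMM scaling, the default filter by group and 1 term per group; the quasi-likelihood test was adjusted by Benjamini-Hochberg over 9024 genes and called under 0.05. The SE is the log2 change over the root of the test statistic. The script was checked on simulated counts. Likeness used log2 CPM with a prior count of 1. Alternatives were other scalings and filters, replicate blocks, 2-group fits, DESeq2 1.42.0 and leaving out each library. Replicates differed beyond counting noise (2.30 to 14.6 times per degree of freedom), so none was merged. The limit of 3 counts covers counting error only.

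The members and lists were chosen with earlier results of these data known. Named were all members, up to 3 called genes per list and porthos comparison with the smallest p, the most extreme called gene per direction in polysome against input, and the 3 genes most like AGO2 and AGO1.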

Additional observations from a re-analysis of the deposited data

How the results depend on the processing

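The members' counts of calls in input (0), on polysomes (2), and in polysome against input (8 after GFP and 7 after porthos dsRNA) were the same under every alternative run. For translational efficiency the members' count of 0 became 1 (vig) with no filter, with DESeq2 and with a replicate block per lysate, and ranged from 0 to 2 with libraries left out. Of all genes, 155 called in input became 264 with no filter, 691 in a fit of 2 groups and 244 with DESeq2, with a range of 31 to 259 with libraries left out. The 1658 polysome calls became 853 in a fit of 2 groups, with a range of 855 to 2383. The 9 efficiency calls became 16 with library size alone, 243 with no filter, 3 with the stricter filter, 39 with a replicate block, 227 with a block per lysate and 253 with DESeq2, with a range of 0 to 694. Library size alone turned the share of higher calls from 61.2% to 45.1% on polysomes, 77.8% to 37.5% for efficiency, and 47.9% to 60.2% and 49.5% to 60.9% for polysome against input, where it moved the all-gene median by 0.128 after GFP dsRNA. The causes were not tested.

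Small log2 differences changed sign. In input vig became -0.0039 with RLE scaling or DESeq2 and -0.00012 in a fit of 2 groups (-0.048 to 0.033 with libraries left out). On polysomes, under RLE scaling, library size alone, no filter, the stricter filter and DESeq2, Dcr-1 became -0.0016, -0.035, -0.0094, -0.0014 and -0.0018 (-0.069 to 0.058) and Tudor-SN -0.00093, -0.032, -0.0083, -5.1e-05 and -0.0010 (-0.060 to 0.033); hpRNA:CR32207 became -0.00023, -0.030 and -0.0086 under the first 3 (-0.157 to 0.185). In polysome against input after porthos dsRNA, pasha became 0.00092 with library size alone, and vig ranged from -0.162 to 0.013 with libraries left out. With libraries left out, polysome AGO1 ranged from -0.035 to 0.154, loqs from -0.0098 to 0.109 and drosha from -0.0046 to 0.056, and efficiency of Dcr-2 from -0.096 to 0.023, loqs from -0.110 to 0.011 and Tudor-SN from -0.024 to 0.084. The log2 ratio AGO2 to AGO1 ranged from 0.178 to 0.301 in input and 0.255 to 0.450 on polysomes, Dcr-2 to Dcr-1 from 0.041 to 0.131 and 0.062 to 0.229, and r2d2 to loqs from -0.160 to -0.102 and 0.0030 to 0.246. A group left with 2 libraries was fitted with the spread shared over all groups.

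Between treatments, same-number correlations of deviations from the group mean ran from -0.025 to 0.084. Between input and polysome of equal treatment they ran from 0.030 to 0.126, and each library correlated best with its own number. The main fit held no block for such a pairing. A replicate block left 0, 2 and 0 members called in input, on polysomes and for efficiency. For the ratios, pairing libraries by number cannot change the differences, because with equal group sizes the mean paired difference equals the difference of means. The exact sign-flip p was 0.25 or 0.5, and with so few pairs this test cannot give a p below 0.25, so it decides nothing. A block per lysate called vig for efficiency (0.58, adjusted p = 0.021). Per longest transcript, the input level per kilobase became 253 for vig, 23.8 for r2d2, 14.7 for pasha and 10.1 for loqs. Depth limits the rarest rows most, such as hpRNA:CR32205 at 18 to 100 counts.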
